A study of Danio rerio with 6 samples.

Results

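Exons whose length is not a multiple of 3 shift the reading frame when they are left out of a coding transcript. Of the 1816 skipped-exon events that the authors deposited for rbm24a mutant and wild-type zebrafish embryos, 711 (39.2%) had such an exon, and 1105 had an exon whose length is a multiple of 3. The table's own title line gives 1796 events, which is the number the authors labelled Up or Down, and the other 20 are labelled as no change. Of those 20, 15 are among the 711, with changes of at most 2.03 percentage points, and they were kept. The 711 events were found by exon length alone. They held 703 distinct exons in 573 genes, and 621 places in the genome once overlapping exons were joined. The length left a remainder of 1 base in 379 events and of 2 bases in 332.

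A cassette exon is kept in some transcripts of a gene and skipped in others. Where a frame-shifting exon lies in the coding sequence, only the transcripts with it or only those without it can usually keep the downstream frame. The others often meet an early stop codon, and transcripts with an early stop are a known substrate of nonsense-mediated decay, which degrades them in the cytoplasm. Genes of splicing regulators are well known for exons of this kind, many of which tune the regulator's own level. Rbm24 is an RNA-binding protein with 1 RNA recognition motif, known in vertebrates as a regulator of muscle splicing and of mRNA stability and translation, in heart, skeletal muscle and lens. Whether each exon is coding, or lies in an untranslated region, was not analysed here, so "frame-shifting" refers to the length of the exon.

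The libraries were made from RNA of whole embryos of the AB strain at 33 hours post fertilization (hpf), with 3 wild-type and 3 rbm24a mutant libraries. The mutants carry an 8 bp deletion made with TALEN nucleases, and the labels place it in exon 1, 2 or 3 for the 3 mutant libraries in turn, a difference that was not resolved here. No driver or transgene is involved, and the labels speak of independent samples without saying how many embryos each held, or whether maternal rbm24a product was present. Reads assigned to genes numbered 13242789 to 16043155 per library. Counts of rbm24a itself, in order of replicate, were 204, 247 and 211 for wild-type and 288, 514 and 366 for mutant embryos, a rise of 0.77 on the log2 scale (SE 0.16, edgeR adjusted p = 0.00572, and 0.0711 with limma on FPKM). A small deletion leaves most of the transcript to be counted, and the count is therefore no check of genotype. All 24 fixed markers of lens, muscle, heart, blood, neurons, epidermis, cartilage, yolk and myeloid cells had at least 1 read in every library. That rule asks little at this depth, and the whole-embryo label was not checked in any other way. Mutant replicate 2 stood apart from the other mutant libraries, with a chi-square per gene of 19.7 and 21.7 against them, where the other pairs within a group lay between 3.48 and 6.51. The share of all genes called is therefore also given without it.

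An inclusion level is the share of transcripts that keep the exon, as the authors estimated it from inclusion and skipping reads, and each event has 3 wild-type and 3 mutant levels. The levels carry no replicate number, so a level of an event is not tied to a named library. All events in the deposited table have an FDR under 0.05 from the authors, with 0.0497 as the highest among the frame-shifting ones, so the change was not tested again across replicates. With 3 levels against 3 an exact two-sided permutation test cannot give a p below 0.1, and levels that do not overlap between the groups are reported in its place.

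Read support differed widely among the 711 events. At least 1 library had no read in 157 events, and 68 events rested on 10 or fewer reads over all 6 libraries. The 387 events with under 20 reads in some library had a median change of 23.4 percentage points in either direction. The 324 events where every library reached 20 reads had a median change of 5.70 points, and the 191 events with at least 50 reads one of 4.60 points. Size of change and depth thus went in opposite directions. Every event had already passed the authors' FDR of 0.05, and with few reads a small change is less likely to pass. The part of this selection in the medians was not tested. The exons described from here on are the 324 with at least 20 reads, from 263 genes.

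A very low FDR from the authors did not always come with many reads. Of 137 frame-shifting events with an FDR under 1e-20 in the authors' deposited table, 83 had fewer than 500 reads over the 6 libraries. The median over all 711 events was 165 reads, and whether FDR follows reads was not tested. For the rab12 exon described later, which had 165 reads in all, the authors' deposited table lists 5.79e-100. Fisher's exact test on its pooled reads gave an unadjusted p of 8.87e-05. For si:dkeyp-73d8.12 the deposited FDR was 4.30e-30 and Fisher's test gave p = 0.0769. In cyt1l the order was the other way, with an FDR of 1.98e-73 and a Fisher p of 1.60e-200. The deposited FDR is therefore given as the authors' value and not as a measure of strength. Fisher's exact test on reads pooled over each group, adjusted over all 1816 events, passed 0.05 in 251 of the 711 events and in 177 of the 324. That test takes each read as independent and has no term for the spread between embryos, so its p-values compare these libraries only. The 1816 events had already passed the authors' FDR on the same reads, and the number first tested is not known. An adjustment over them alone is too lenient, so these counts are a description.

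Inclusion was lower in the mutants in 399 of the 711 events and higher in 312. Lower inclusion thus made up 56.1% of the frame-shifting events, beside 54.9% of all events in the table. Among the 324 exons with at least 20 reads, 186 were lower and 138 higher, which is 57.4% lower beside 57.5% over all 727 skipped exons at that depth. Direction was therefore split in the same proportion as in the table as a whole.

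Levels of the groups did not overlap in 138 of the 324 exons (42.6%), beside 292 of all 727 skipped exons at that depth (40.2%). Every mutant level lay below every wild-type level in 88 exons, and above in 50. The same background was 25.4% for lower and 14.7% for higher. Of the 403 frame-keeping exons with at least 20 reads, 154 (38.2%) did not overlap. The share among frame-shifting exons was near the background in both directions. Changes of the 88 ranged from -2.03 to -34.2 percentage points and those of the 50 from 1.97 to 25.8 points.

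**Figure D1:**
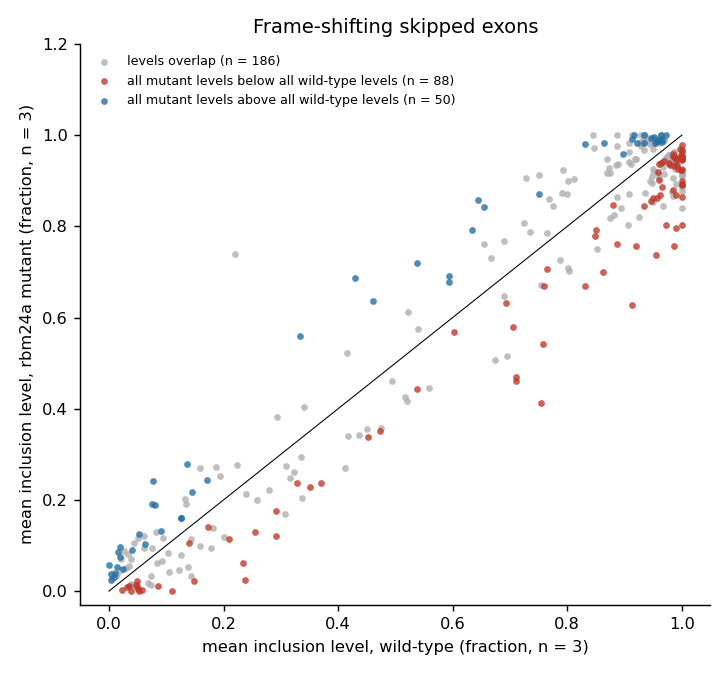
Mean inclusion level in the 3 wild-type levels (horizontal axis, fraction) against that in the 3 rbm24a mutant levels (vertical axis, fraction) for the 324 frame-shifting exons where every library reached 20 reads, with the line of equal levels. Of the points, 88 in red have all mutant levels below all wild-type levels, 50 in blue have them all above, and 186 in grey overlap, with many exons crowded near a level of 1.

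Most frame-shifting exons were close to always kept or close to always skipped in wild-type embryos. Mean wild-type inclusion was above 0.9 in 144 of the 324 exons (44.4%), where it was above 0.9 in 125 of the 403 frame-keeping exons (31.0%). Of these 144 exons, inclusion was lower in the mutants in 95 and higher in 49, and the groups did not overlap in 46 and 15 of them. At the other end, 53 exons had a wild-type mean of at most 0.1, of which 19 were lower and 34 higher in mutants. The exons of 0.1 to 0.5 were lower in 41 and higher in 18, and those of 0.5 to 0.9 were lower in 31 and higher in 37. The frame-keeping exons were split 65 lower to 57 higher and 55 to 43 in the same middle classes. Above 0.9 the frame-keeping exons were lower in 96 and higher in 29, without overlap in 45 and 4. At most 0.1 they were lower in 16 and higher in 42. Falls near a level of 1 and rises near 0 were thus the more frequent in both kinds of exon. The split was more uneven among frame-keeping exons, and no test of these differences was made. The classes were made from the wild-type levels that also enter the change, and a level cannot pass 0 or 1. An exon near 1 has little room to rise and one near 0 little room to fall. How far the classing set the directions in the outer classes was not tested, and they are not taken as a result about the exons. The class of 0.1 to 0.5, with room on both sides, was also uneven among frame-shifting exons (41 lower and 18 higher).

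Very short exons were rare among the frame-shifting ones. Exons of 27 bases or fewer made up 3 of 324 (0.926%), beside 42 of 403 frame-keeping exons (10.4%). The median length was 100 bases (quartiles 70 and 152), beside 81 bases (quartiles 48 and 123) for frame-keeping exons. The median change in either direction was 5.70 and 6.67 percentage points.

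**Figure D2:**
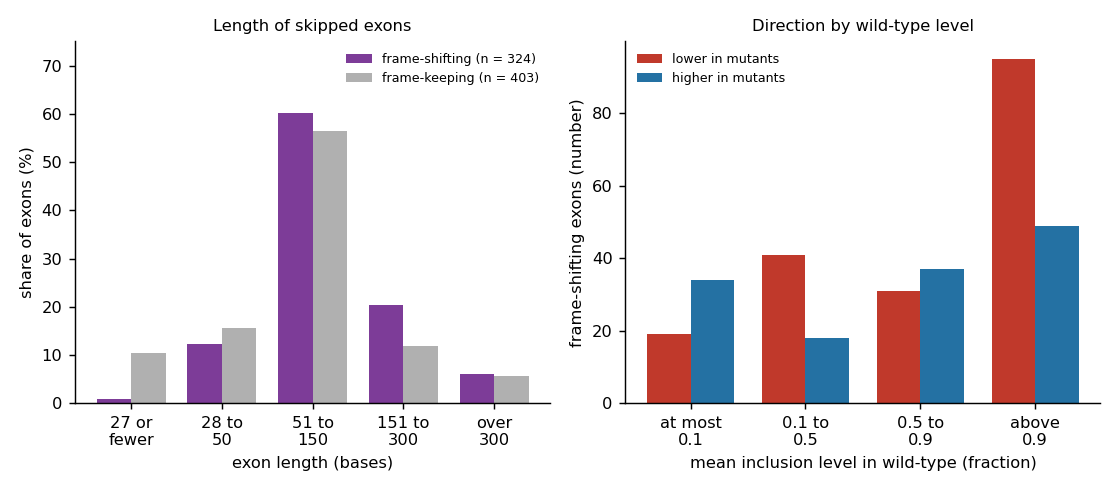
Left, share (%) of 324 frame-shifting and 403 frame-keeping exons, all with 20 or more reads per library, by exon length in bases; right, number of frame-shifting exons with lower or higher mean inclusion in rbm24a mutants by mean wild-type level. The shortest length class holds 0.926% of frame-shifting and 10.4% of frame-keeping exons, and the class above 0.9 holds 95 lower and 49 higher exons.

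The exon with the largest fall in mean level among those that did not overlap was one of 89 bases in si:dkey-100n23.4, a gene known only by its clone name (chr9:30436647-30436735, build GRCz11). Its levels were 0.787, 0.755 and 0.721 in wild-type and 0.711, 0 and 0.526 in mutants, a change of -34.2 percentage points. One mutant level of 0 sets much of this size, since without it the change is -13.6 points. The event rested on 1598 reads.

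The second was the 61-base exon of nenf, which encodes the secreted heme-binding factor neudesin (chr17:45413153-45413213). Its levels were 0.832, 0.973 and 0.936 in wild-type embryos and 0.615, 0.669 and 0.598 in mutants, a change of -28.6 points. All mutant levels were well below the lowest wild-type level. Counts of the nenf gene moved the other way, from 146, 182 and 136 in wild-type to 348, 375 and 351 in mutants, a rise of 1.18 on the log2 scale (SE 0.14, edgeR adjusted p = 9.24e-05). The event itself had 86 to 123 reads in each library, so its reads did not rise as much as the gene's counts. The reason for that difference was not tested.

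In cyt1l, a type I keratin gene, an exon of 133 bases (chr19:5441007-5441139) had levels of 0.66, 0.669 and 0.804 in wild-type and 0.496, 0.391 and 0.523 in mutants. The change was -24.1 points over 19269 reads, so counting error was small. Fish keratin genes lie in clusters of similar copies, and reads shared between copies could not be told apart. The gene's own count did not pass the test (log2 change 0.15, adjusted p = 0.544).

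The remaining falls of the top 8 had wild-type levels at both ends of the scale. For mettl24, a methyltransferase-like gene, the 241-base exon (chr20:53624354-53624594) went from 1, 0.958 and 1 to 0.827, 0.645 and 0.797. For tmem39a, which encodes a membrane protein of the endoplasmic reticulum, the 143-base exon (chr1:43288-43430) went from 0.99, 0.946 and 0.931 to 0.703, 0.835 and 0.676. Both exons were kept in nearly all wild-type transcripts and skipped in some in every mutant library. The 76-base exon of tmem186, a mitochondrial membrane protein gene (chr22:26991819-26991894), had 0.749, 0.703 and 0.823 in wild-type and 0.478, 0.658 and 0.489 in mutants. The 136-base exon of the small GTPase gene rab12 (chr2:54681370-54681505) had 0.116, 0.242 and 0.343 in wild-type and 0.098, 0.055 and 0.029 in mutants. The rab12 groups were separated by less than the spread within the wild-type levels.

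The event of hbbe1.1, an embryonic beta globin gene of red blood cells, stood out by depth. Its 101-base exon (chr3:54859745-54859845) had levels of 0.238, 0.212 and 0.262 in wild-type and 0.026, 0.026 and 0.023 in mutants, a change of -21.2 points over 70452 reads. Replicates were close to each other and the groups far apart. Counts of the gene fell from 2990, 2947 and 3339 to 171, 162 and 160, a log2 change of -4.26 (SE 0.13, edgeR adjusted p = 4.20e-10). The event's flanking exons lie at chr3:54859451-54859643 and chr3:54868310-54868532. The event had 9975 to 14472 reads in each library, mutants included, far above the counts of the gene. Most of the event's reads in mutants were thus not among those counted for hbbe1.1. Reads from neighbouring, near-identical globin copies could not be told apart from it, so the exon change cannot be tied to this gene alone. The alpha globin marker hbae1 also fell (log2 change -2.75, edgeR adjusted p = 3.15e-08), while gata1a, a transcription factor of red cell precursors, rose (log2 change 0.69, edgeR adjusted p = 0.0165). In whole embryos fewer cells of a type and less RNA per cell cannot be told apart.

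Among the rises, the largest without overlap was a 44-base exon of sh2b1, which encodes an adaptor of receptor tyrosine kinase signalling (chr3:15209283-15209326). Levels were 0.462, 0.382 and 0.445 in wild-type and 0.693, 0.677 and 0.692 in mutants, a change of 25.8 points over 273 reads. The mutant levels were nearly equal to one another. The gene count did not pass the test (log2 change 0.22, adjusted p = 0.215).

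In scarb1, the gene of a scavenger receptor for high-density lipoprotein, the 73-base exon (chr10:44896791-44896863) had 0.296, 0.423 and 0.284 in wild-type and 0.559, 0.491 and 0.631 in mutants. In the homeobox gene hoxa3a the 58-base exon (chr19:20201745-20201802) had 0.615, 0.615 and 0.702 in wild-type and 0.903, 0.896 and 0.776 in mutants. These changes were 22.6 and 21.4 points, over 188 and 201 reads. Neither gene passed the count test.

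The 97-base exon of rgs12b, a regulator of G protein signalling, had levels of 0.556, 0.718 and 0.69 against 0.909, 0.752 and 0.869. The 38-base exon of the histone chaperone gene nap1l4b had 0.474, 0.491 and 0.65 against 0.672, 0.691 and 0.794. In both, the highest wild-type and the lowest mutant level were close. The 115-base exon of cpne3, a calcium-dependent lipid-binding copine, had 0.431, 0.54 and 0.414 against 0.646, 0.599 and 0.664. The 230-base exon of eps8l1, a gene of the EPS8 family of actin regulators, had 0.065, 0.061 and 0.106 against 0.266, 0.296 and 0.164. The 59-base exon of babam1, a subunit of complexes that remove ubiquitin chains in the DNA damage response, had 0.695, 0.593 and 0.614 against 0.791, 0.844 and 0.739. The changes of these 5 exons ran from 15.7 to 18.9 points.

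**Figure D3:**
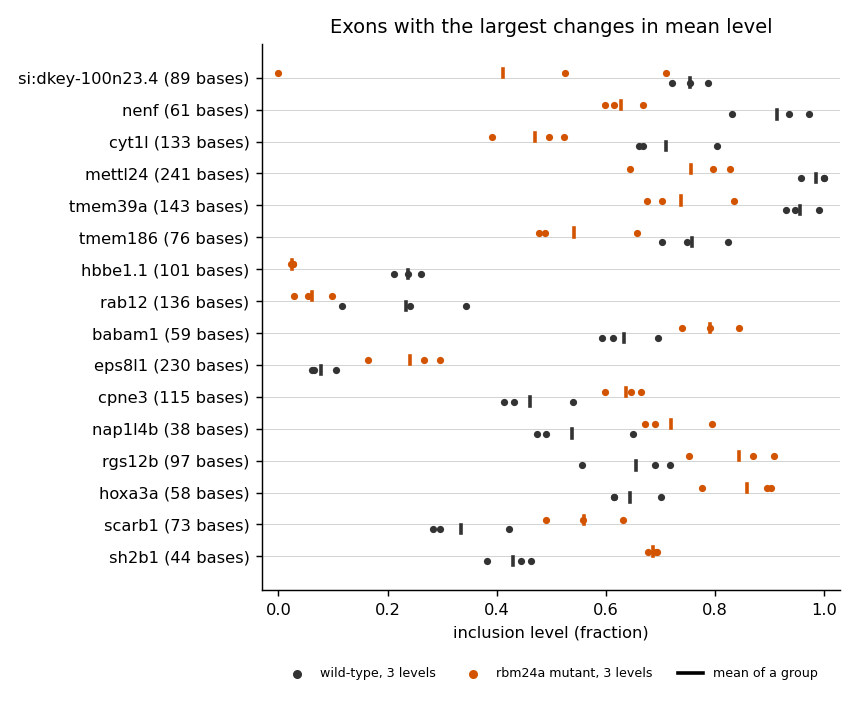
Inclusion levels (fraction) of the 16 frame-shifting exons with the largest falls (top 8) and rises (bottom 8) among those with 20 or more reads per library and no overlap. Dots are the 3 wild-type (dark) and 3 rbm24a mutant (orange) levels, bars their means; hbbe1.1 and sh2b1 have tight levels, and 1 mutant level of si:dkey-100n23.4 is at 0.

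A few exons were minor in wild-type and close to absent in mutants, and they are named here after their values were seen. They do not stand for their class. Of the 53 exons with a wild-type mean of at most 0.1, 34 were higher and 19 lower in mutants, without overlap in 17 and 11. The 74-base exon of fth1a, the ferritin heavy chain gene, had levels of 0.048, 0.060 and 0.049 in wild-type and 0, 0.001 and 0 in mutants over 30627 reads. The 100-base exon of hmgn3, a nucleosome-binding protein gene, had 0.023, 0.023 and 0.021 against 0.002, 0.003 and 0.001 over 8837 reads. The 97-base exon of the G protein gamma gene gng2 had 0.036, 0.060 and 0.021 against 0 in every mutant level over 575 reads. The fth1a and hmgn3 exons are among the more deeply read of the set. Also chosen after its values were seen was a 52-base exon of the ribosomal protein gene rpl14. It had the largest mean rise of all 324 exons (52.1 points). Its levels were 0.184, 0.164 and 0.31 in wild-type and 1, 0.221 and 1 in mutants, so the groups overlapped and 1 mutant level was like wild-type.

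Splicing factor genes were the listed group with the most frame-shifting events. Of 90 listed splicing factor genes tested, 20 (22.2%) had a frame-shifting event in the table, beside 536 of all 16489 genes tested (3.25%). Frame-keeping events were also common in the list, in 15 genes (16.7%), beside 4.67% of all genes tested. At 20 reads or more the shares with a frame-shifting and a frame-keeping exon were 14.4% and 11.1%, beside 1.60% and 1.91% of all genes. At 20 reads or more there were 18 exons in 13 of these genes, 7 lower and 11 higher in mutants, and the groups did not overlap in 4 and 4 of them, in 7 genes. These 8 of 18 are 44.4%, beside 40.2% of all skipped exons at that depth. The list, like the members, was drawn up with earlier results of these data known. Median expression was 15.2 FPKM (fragments per kilobase of exon, scaled to the library's depth) in genes of the 324 exons. Those exons had to reach 20 reads in every library, which favours highly expressed genes. It was 4.64 FPKM in all genes tested. The part of expression in the share of splicing factor genes was not tested.

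Polypyrimidine tract binding proteins repress exons, and the paralogs ptbp1b and ptbp2b both had a 34-base exon in the table. In mammals each of the corresponding genes has an exon whose skipping leads to decay of the transcript, and whether the zebrafish exons are their counterparts was not analysed here. The ptbp2b exon had levels of 0.788, 0.703 and 0.906 in wild-type and 0.842, 0.917 and 0.856 in mutants. The ptbp1b exon had 0.851, 0.917 and 0.915 against 0.793, 0.866 and 0.862. Both overlapped between groups. A second ptbp2b exon, of 17 bases, did not overlap, with 0.42, 0.318 and 0.314 against 0.216, 0.2 and 0.268, a change of -12.3 points. Counts of ptbp2b did not pass the test (log2 change 0.03, adjusted p = 0.889).

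Among the SR protein and related genes, which promote exon inclusion, a 398-base exon of srsf3a had levels of 1, 0.969 and 1 in wild-type and 0.874, 0.921 and 0.809 in mutants. The change of -12.2 points did not overlap. In tra2b a 44-base exon was minor in both groups, at 0.038, 0.061 and 0.026 against 0.009, 0.007 and 0.026. A 55-base exon of sf3b1, a core subunit of the U2 particle, was also minor, at 0.054, 0.038 and 0.053 against 0.017, 0.037 and 0.012.

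Kinases of the CLK family phosphorylate SR proteins, and all 3 family members with an exon at 20 reads had higher mean inclusion in mutants. The 91-base exon of clk4b had levels of 0.81, 0.697 and 0.743 in wild-type and 0.842, 0.871 and 0.903 in mutants, a change of 12.2 points. In clk4a 2 versions of 1 exon share their end and were counted separately. That of 112 bases had 0.626, 0.623 and 0.533 against 0.674, 0.746 and 0.653. That of 163 bases had 0.629, 0.603 and 0.551 against 0.666, 0.737 and 0.634, so the highest wild-type and lowest mutant level were nearly equal. Its change was 8.47 points, or 5.57 without the highest mutant level. Neither clk4b nor the clk4a versions overlapped between groups. The 91-base exon of clk2a had 0.465, 0.935 and 0.783 against 0.897, 1 and 0.823, which overlapped. Its change was 17.9 points with all levels and 4.77 without the wild-type level of 0.465. Gene counts of clk2a, clk4a and clk4b did not pass the test.

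The exons of rbm5, a splicing regulator tied to cell death genes, moved in both directions. Its 61-base exon had levels of 0.991, 0.972 and 0.971 in wild-type and 0.922, 0.931 and 0.962 in mutants, without overlap. The overlapping versions of 74 and 211 bases each had a mean change of 10.7 points and did overlap, with 1 mutant level inside the wild-type range. The change of the 211-base version was 5.67 points without the wild-type level of 0.316. In fus, an RNA-binding protein gene, the 35-base exon had 0.962, 0.968 and 0.932 against 0.985, 0.979 and 0.985, a change of 2.90 points that was 1.80 without the wild-type level of 0.932.

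Among the hnRNP genes, hnrnpk had a gene call. Its 44-base exon had levels of 0.994, 0.992 and 0.972 in wild-type and 0.953, 0.974 and 0.963 in mutants, which overlapped. Counts of hnrnpk fell from 2618, 2861 and 3000 to 1920, 2071 and 2315 (log2 change -0.46, SE 0.10, edgeR adjusted p = 0.0053). It was the only one of the 13 splicing factor genes to pass. In hnrnpa1b, versions of 83 and 208 bases were higher in 2 mutant levels and lower in 1, with 0.872, 0.873 and 0.864 against 0.969, 0.835 and 0.944 for the shorter. The 56-base exon of rbm39b had 2 mutant levels above the wild-type range and 1 inside it, with 0.025, 0.048 and 0.007 against 0.138, 0.026 and 0.103. Over the whole list, rbm24a was the 1 gene that rose, and srsf1b, hnrnpa3, hnrnpk and hnrnpua fell, which is 5.56% of the 90 called beside 14.2% of all genes.

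**Figure D4:**
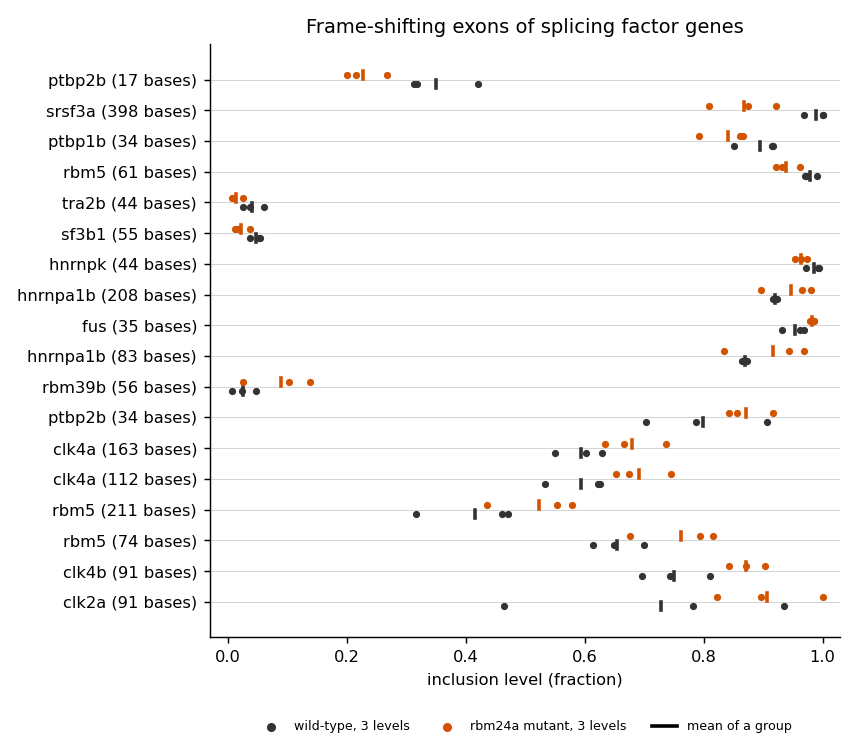
Inclusion levels (fraction) of 18 frame-shifting exons in 13 splicing factor genes, ordered by change in mean level. Dots are 3 wild-type (dark) and 3 rbm24a mutant (orange) levels and bars are means; 7 exons lie lower and 11 higher in mutants, and the CLK kinase exons are among the higher.

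The other lists had few frame-shifting exons at 20 reads. Of 97 listed skeletal muscle genes with a row of counts, 86 were tested. An event was present in 7 of the 97, and 1 reached the depth. That was a 40-base exon of atp2a1, the calcium pump of the sarcoplasmic reticulum, with 0.764, 0.789 and 0.74 in wild-type and 0.779, 0.827 and 0.749 in mutants. The groups overlapped, and the change of 2.07 points became -0.0333 points without the mutant level of 0.827. Counts of atp2a1 rose from 15438, 19667 and 15415 to 24937, 36508 and 24779 (log2 change 0.73, SE 0.16, edgeR adjusted p = 0.00862), a call lost without wild-type replicate 1 or 3 (edgeR adjusted p = 0.0624 and 0.0743). Of the muscle list 16 genes rose (18.6%) and 7 fell (8.14%), beside 6.71% and 7.48% of all genes. The muscle markers myhz1.1, actc1b and tnnt3b rose by 1.01, 0.63 and 0.49 on the log2 scale. The part of muscle content in the atp2a1 count was not tested.

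Of 33 lens genes tested, 19 fell (57.6%) and 1 rose (3.03%) in counts, beside 7.48% and 6.71% of all genes. None had a frame-shifting event, beside 3.25% of all genes tested. Cytoskeleton and adhesion genes had events in 5 of the 80 with a row of counts, all 4 exons at 20 reads being lower in mean and overlapping. These were 2 versions of an exon in the laminin receptor gene itga6b, and exons of add1 and myo18aa. The 94-base version of itga6b had 0.743, 0.778 and 0.741 in wild-type and 0.661, 0.743 and 0.608 in mutants. Of the same 80 genes 24 had a frame-keeping event, beside 4.67% of all genes tested, a share taken over tested genes only.

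Chromatin and transcription genes had events in 4 of the 53 with a row of counts. The 110-base exon of chd4b, a nucleosome remodelling ATPase, had levels of 0.947, 0.961 and 0.986 in wild-type and 0.93, 0.861 and 0.869 in mutants, without overlap. In tcf7l2, a transcription factor of Wnt signalling, the 61-base exon had 0.155, 0.174 and 0.253 against 0.307, 0.235 and 0.216, which overlapped. Counts of tcf7l2 fell by 0.36 on the log2 scale (SE 0.10, edgeR adjusted p = 0.0363). The call was lost without wild-type replicate 1 or 2 or mutant replicate 1 or 3 (edgeR adjusted p from 0.0802 to 0.167).

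The gene counts were then set beside the exon changes, 1 exon per gene, to see whether genes with a frame-shifting exon differed in level. Over all genes, edgeR called 2341 of 16489 (14.2%), 1107 higher (6.71%) and 1234 lower (7.48%). Of the 573 genes, 536 were expressed highly enough to test and 71 were called, 32 higher and 39 lower, which is 13.2%. Of the 263 genes with an exon at 20 reads all were tested, and 38 were called (14.4%), 22 higher and 16 lower. Both shares were near the background. Of the 315 genes with a frame-keeping exon at that depth, 44 were called, 18 higher and 26 lower.

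Of 146 genes whose exon was lower in mutants, 9 fell (6.16%) and 9 rose (6.16%) in counts, and the median log2 change was 0.02. Of 117 genes whose exon was higher, 7 fell (5.98%) and 13 rose (11.1%), with a median of -0.0010. Over all genes 7.48% fell and 6.71% rose, and the difference between the directions was not tested. Leaving out wild-type replicate 1, 2 or 3 or mutant replicate 1 or 3 gave 2 to 5 that fell and 7 to 12 that rose among the 117. The same fits gave 6 to 9 that fell and 5 or 6 that rose among the 146. Without mutant replicate 2, 15 fell and 26 rose (22.2%) among the 117, and 19 fell and 35 rose (23.97%) among the 146. Over all genes 14.6% rose in that fit, and the larger share of rises among genes whose exon was higher was not seen. Among the 117, limma gave 10 that fell and 10 that rose, and DESeq2 gave 5 and 13. Over all genes, calls in either direction were 2153 with limma and 2262 with DESeq2. They were 1335 to 1660 in the fits without a wild-type replicate or without mutant replicate 1 or 3. Shares by direction over all genes were not taken in these fits, so their counts have no background and are no result about these genes. The median over all genes tested was -0.0018 in the main fit. Across the 263 genes Spearman's rho between the change in inclusion and the log2 change in counts was -0.0048, given as a description since genes share the 6 libraries and are not independent. In the 117 genes whose exon levels did not overlap, 17 were called (14.5%), 9 lower (7.69%) and 8 higher (6.84%). These shares were near those of all genes, at 14.2%, 7.48% and 6.71%.

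Without mutant replicate 2, edgeR called 29.6% of all genes, 14.6% higher and 15.1% lower. Of the 263 genes it called 95 (36.1%), of which 61 were higher (23.2%) and 34 lower (12.9%). The share of higher calls among the 263 was thus above that of all genes in this fit, a difference that was not tested. Of all 536 tested genes with a frame-shifting event, at any depth, the same fit called 174 (32.5%). Of the 536, 17.9% were higher and 14.6% lower, nearer to all genes. The 263 were also more highly expressed than all genes tested (median 15.2 against 4.64 FPKM). The part of expression in their share was not tested, and genes with a frame-keeping exon were not taken in this fit. All 38 genes called with every library were among the 95. Leaving out another library kept between 22 and 29 of the 38, and 19 were called in every one of the 6 fits. The count over the 263 genes was 23 (8.75%), 25 (9.51%) and 22 (8.37%) without wild-type replicates 1, 2 and 3. Calls over all genes also dropped in these fits, from 2341 to 1352, 1542 and 1335.

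**Figure D5:**
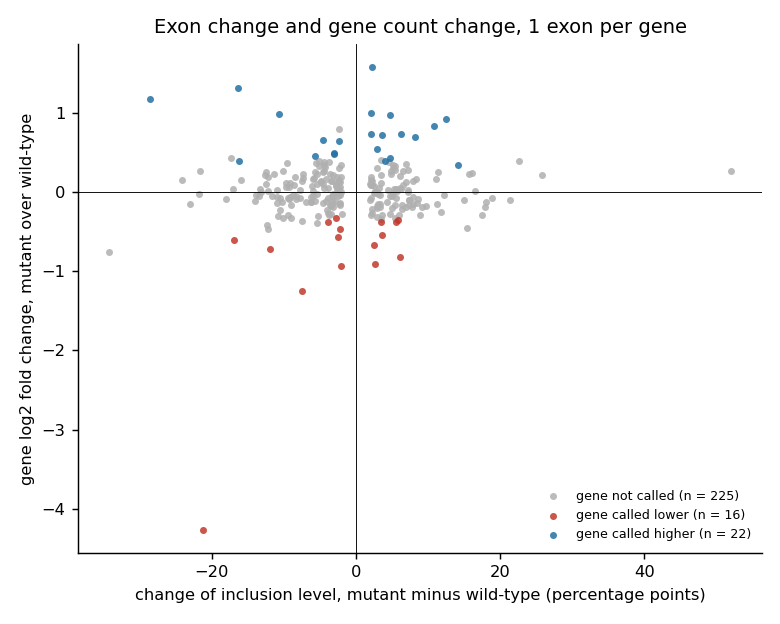
Change of inclusion level (mutant minus wild-type, percentage points) against the gene's log2 fold change in counts (mutant over wild-type) for 263 genes with a frame-shifting exon of 20 or more reads per library. Colours mark genes called by edgeR, 16 lower in red and 22 higher in blue; the points spread over all 4 quadrants, and hbbe1.1 lies far below the rest.

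The largest falls in counts after hbbe1.1 were in genes whose exon was nearly always kept. The unnamed clone gene si:dkey-69o16.5 went from 357, 398 and 496 reads to 164, 167 and 208 (log2 change -1.25, SE 0.13, edgeR adjusted p = 4.96e-05). Its 89-base exon went from 1, 0.994 and 1 to 0.946, 0.873 and 0.949. Counts of rps27.1, a protein of the small ribosomal subunit, fell by 0.93 on the log2 scale (edgeR adjusted p = 0.00163), and its 100-base exon went from 0.999, 1 and 1 to 0.977, 0.981 and 0.977. Ribosomal protein genes have near-identical copies, so reads of rps27.1 are uncertain.

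In plgrkt, a plasminogen receptor gene, and mrpl30, a mitochondrial ribosome gene, counts also fell while inclusion was higher. Counts of plgrkt were 370, 431 and 402 in wild-type and 201, 158 and 299 in mutants, and its 131-base exon went from 0.996, 0.96 and 0.963 to 1 in every mutant level. Those of mrpl30 fell by 0.82 on the log2 scale (edgeR adjusted p = 0.0218), and its 47-base exon went from 0.875, 0.931 and 0.961 to 0.976, 1 and 0.975. The exon's change of 6.13 points was 3.77 without the wild-type level of 0.875. The mrpl30 count lost its call without wild-type replicate 1, 2 or 3 (edgeR adjusted p = 0.115, 0.0551 and 0.0635), and with DESeq2.

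The largest rise in counts was that of the clone gene si:dkeyp-73d8.12, from 29, 23 and 31 to 52, 105 and 102 reads (log2 change 1.58, SE 0.28, edgeR adjusted p = 0.00184). Its 136-base exon was nearly always skipped and overlapped between groups, at 0.015, 0 and 0 against 0.019, 0.015 and 0.049. Counts of si:ch211-121a2.2 rose by 1.31 (edgeR adjusted p = 8.04e-04), with a 136-base exon at 0.832, 0.942 and 0.814 in wild-type and 0.742, 0.618 and 0.738 in mutants. Next came nenf, described above. Counts of fahd2a, a hydrolase-like gene, were 1743, 1688 and 1688 in wild-type and 3523, 3362 and 3619 in mutants, which is a log2 change of 1.00 (SE 0.11). Its 56-base exon overlapped, at 0.078, 0.079 and 0.067 against 0.061, 0.105 and 0.119. In dph6, an enzyme of diphthamide synthesis, counts rose by 0.99 (edgeR adjusted p = 0.00341), and the 92-base exon overlapped at 0.947, 1 and 1 against 0.914, 0.712 and 1.

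Of 28 listed genes of nonsense-mediated decay itself 25 were tested, 1 rose and 2 fell, which is 12% called beside 14.2% of all genes. None had a frame-shifting event, beside 3.25% of all genes tested. The cytoplasmic exonuclease gene xrn1 rose by 0.46 on the log2 scale (edgeR adjusted p = 0.0139). The endonuclease gene smg6 counted 429, 504 and 514 in wild-type against 318, 372 and 376 (log2 change -0.48, edgeR adjusted p = 0.00716), and the decapping gene dcp1b fell by 0.49 (edgeR adjusted p = 0.0202). The central helicase gene upf1 stood at 1037, 1144 and 1219 in wild-type against 1147, 1086 and 1316, with a log2 change of 0.03 (adjusted p = 0.892). The calls of xrn1 and dcp1b were each lost without wild-type replicate 1, wild-type replicate 3 or mutant replicate 1, and that of dcp1b also without mutant replicate 3 (edgeR adjusted p from 0.0544 to 0.121).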

How the data were processed

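RNA of 3 wild-type and 3 rbm24a mutant samples was sequenced as 100 bp paired reads, per the labels' protocols. The submitters' processing notes name, with no role, HTSeq 0.6.1, HISAT2 2.0.1, DESeq2, bcl2fastq 2.17.1.14, cutadapt and build GRCz11. The authors deposited raw counts and FPKM per gene, and a table of skipped exons with inclusion and skipping read counts, inclusion levels (fractions), p-values, FDR and, as a signed score, the difference of mean levels. Its tool was not given in the sources used. The deposited inclusion length exceeds the exon length by 149 in every event, so inclusion reads include reads in the body of the exon.

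The commas between replicate counts were lost in some cells (137 of the 711 events). All partings that returned each deposited level to within 0.00051 were found. In 24 events several ways remained, and the one with the most similar reads per library was used. Symbols come from the gene table, by gene ID.

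Genes averaging 0.5 FPKM or more were tested on counts with edgeR 4.0.16 (quasi-likelihood, TMM, two-sided, Benjamini-Hochberg, threshold 0.05, R 4.3.3), all 6 libraries in 1 fit, tested on simulated data beforehand. Alternatives used DESeq2 1.42.0 and limma 3.58.1 on log2(FPKM + 1), and SciPy 1.17.1 gave Fisher's test. Log2 changes are mutant over wild-type. Nothing says how embryos were shared out among samples, so p-values measure only the spread between these samples, which may be technical.

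Named exons are, 1 per gene, the 8 largest falls and rises without overlap at 20 reads, the 5 largest falls and rises in counts among called genes, and members of fixed lists. The members and the lists were chosen with earlier results of these data known. No genome was used, so no sequence is shown.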

Additional observations from a re-analysis of the deposited data

How the results depend on the processing

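Of all genes, edgeR called 2341, beside 1431 with a minimum of 5 FPKM, 853 with a minimum change of 2-fold and 1335 to 4838 when 1 library was left out, the highest without mutant replicate 2. For the 71 called genes with a frame-shifting exon the 2-fold minimum left 17, and leaving out 1 library gave 33 to 174. For the 38 called genes at 20 reads these were 6 and 22 to 95. Genes by direction of exon and gene (lower and lower 9, lower and higher 9, higher and lower 7, higher and higher 13) became 2, 2, 0 and 2 with the 2-fold minimum. By the sign of the fold change alone they were 69, 77, 59 and 58, and leaving out 1 library gave 6 to 19, 5 to 35, 2 to 15 and 7 to 26.

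Whether replicate numbers pair the samples could not be settled. Deviations of same-numbered libraries correlated at 0.19, 0.32 and 0.05 for numbers 1, 2 and 3. Libraries 1 and 2 of each group correlated best with their own number, and libraries 3 did not. The main fit has no term for replicate number. With the replicate number as a block, edgeR called 3388 of 16489 genes, beside 2341 in the main fit. Of genes with a frame-shifting exon it called 111 of 536 (20.7%), and 61 of 263 (23.2%) at 20 reads. The 4 combinations were 16, 17, 11 and 17. Calls thus rose over all genes as well as among the members.

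The 399 lower and 312 higher events became 232 and 167 at 10 reads in every library, 186 and 138 at 20, and 110 and 81 at 50. They were 219 and 162 with a change of at least 10 percentage points, 109 and 67 without overlap, and 147 and 104 with Fisher's test on pooled reads, chosen after seeing the data. That test was adjusted only over events already selected on the same reads, so its counts are no independent check. Leaving out 1 level gave 381 to 398 and 287 to 308. The 138 exons without overlap became 116 with Fisher's test, 123 without events parted in several ways and 162 to 185 when 1 level was left out, where fewer levels overlap less easily. Among named exons the change of atp2a1 ran from -0.0333 (reversed) to 3.87 points when 1 level was left out. Leaving out 1 level moved the change of 21 named exons by over 1.5 times. With limma the calls of rbm24a, xrn1 and tcf7l2 were lost. The analyses of stop codons and of GTGTG motifs were not run, as no genome was used. Depth limits most events, since 387 had under 20 reads in some library.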
